A study of Mus musculus with 6 samples.

Results

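Vsnl1, Hpca, Hpcal1, Hpcal4 and Ncald, the visinin-like and hippocalcin-like genes of the neuronal calcium sensor family, were followed in mouse embryonic kidneys with and without Ret. All probe sets of the expression array whose single annotated gene symbol is one of these 5 genes were taken, which gave 9 probe sets out of 45101 on the array. The group was chosen by the array signal of Vsnl1, which was low in Ret-deficient kidneys. The difference of Vsnl1 between the groups is therefore given as a description, without a test. The other 4 genes were taken for their kinship with Vsnl1 and not for their values.

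The tissue was the whole kidney of C57BL/6 embryos at embryonic day 12.5, with 3 biological replicates labelled Ret-deficient and 3 labelled wild-type, each on an Affymetrix mouse expression array of its own. No treatment is named for either group. The sample titles, which name the kidneys as Ret-deficient, were followed, although another label attaches the knockout to the mother. Not given in the sources used here are the Ret allele, the litters and the number of kidneys pooled in a sample. In this tissue Ret, the receptor for glial cell line-derived neurotrophic factor (GDNF), is carried by the ureteric bud, the epithelium that branches into the collecting system.

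Neuronal calcium sensors are small proteins built of EF-hands, the helix-loop-helix folds that bind calcium. Most carry a fatty acid, myristate, at the amino terminus, and many expose it when calcium rises and so move to membranes, where they act on receptors, cyclases, kinases and channels. The family is best known from neurons and photoreceptors. Vsnl1, which encodes visinin-like protein 1, has also been described in the embryonic mouse kidney as a marker of the ureteric bud tip that responds to GDNF.

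In the RefSeq annotation of the mouse genome (GRCm38.p6) Vsnl1 lies at chr12:11325257-11436578 on the minus strand. Hpcal1 is also on chromosome 12, Hpca and Hpcal4 are on chromosome 4, and Ncald is on chromosome 15. The 250 bases before the outermost annotated start of Vsnl1 are shown because this was the member with the large difference between the groups (chr12:11436579-11436828, minus strand, RefSeq, 5′ to 3′). They were searched on both strands for CCGGAA, a core of the motif bound by ETS factors such as Etv4 and Etv5, and for CTTTGA, a core of the motif bound by TCF/LEF factors, and any match would stand in capitals. Both strings were chosen after the signals had been seen.
Vsnl1: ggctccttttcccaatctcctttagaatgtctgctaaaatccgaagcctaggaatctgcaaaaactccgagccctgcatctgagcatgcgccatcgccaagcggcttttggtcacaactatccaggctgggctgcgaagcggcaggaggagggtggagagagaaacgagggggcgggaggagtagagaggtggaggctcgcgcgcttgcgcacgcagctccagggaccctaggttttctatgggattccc
Of these bases 58.0% are G or C, and neither string of letters occurs among them. A second window listed for Vsnl1, at an annotated start inside the gene (chr12:11435652-11435901, minus strand, 41.6% G or C), held CTTTGA in 1 place and no CCGGAA, and its sequence is not shown. Over all 32851 promoter windows of this length in the table, 12.0% held CCGGAA and 13.8% held CTTTGA on either strand. Neither string occurs in the 3 windows listed for Hpca or the single ones of Hpcal1 and Hpcal4. A match or its absence describes only the letters of a window.

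The values are MAS5 signals, a linear brightness per probe set, and the arrays had a common trimmed mean signal of 2500.01. As a gauge of background, the brightest of 27 probe sets for bacterial transcripts was taken on each array. It read 116.8 to 133.4 on the Ret-deficient arrays and 97.2 to 186.9 on the wild-type arrays, with the highest value on wild-type replicate 1. Signals were compared as log2(signal + 16), which understates the change of dim probe sets, and every difference below is Ret-deficient minus wild-type on this scale. A fit with limma over the 22519 brighter probe sets called 0 of them at an adjusted p of 0.05, which is 0% of those tested. An unadjusted p under 0.05 was found at 1209, a share near the 0.05 that arises without any difference. Of the member probe sets 4 were bright enough to be tested, 1 of Vsnl1, 1 of Hpcal1 and 2 of Ncald, and none passed. Both probe sets of Hpca and the single one of Hpcal4 lay under the brightness limit, as did 1 more of Vsnl1 and 1 more of Ncald. Signals of different probe sets are not set against each other, since each has its own affinity.

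Vsnl1 was low in every Ret-deficient kidney sample. Its brighter probe set read 96.2, 314.0 and 502.9 in Ret-deficient replicates 1, 2 and 3, against 1476, 2969 and 2395 in wild-type replicates 1, 2 and 3. The groups did not overlap, and every Ret-deficient value lay far below the lowest wild-type value. In RNA of whole kidneys, fewer cells of a type and less RNA per cell cannot be told apart. Groups that do not overlap in this direction were found at 5.54% of the tested probe sets, and nothing is read from this because Vsnl1 was chosen for it. The means were 304.4 ± 203.5 in Ret-deficient and 2279.9 ± 752.9 in wild-type kidneys (SD, n = 3 each), and the log2 difference was -3.04 (SE 0.57). Only 2 of the 3 Ret-deficient values were above the background gauge. With every value raised at least to the gauge of its own array, the log2 difference of Vsnl1 was -2.92.

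The second probe set of Vsnl1 is annotated to the same transcript record and gave the same order of arrays within the Ret-deficient and within the wild-type group. It read 39.0, 96.4 and 219.0 in Ret-deficient replicates 1, 2 and 3, against 305.5, 1243 and 858.4 in wild-type replicates 1, 2 and 3. Its log2 difference was -2.64 (SE 0.71), in a fit without the brightness limit. Ret-deficient replicate 3 was its only Ret-deficient value above background, so the size of that difference is approximate. Across the 6 arrays the log2 values of both probe sets correlated with r = 0.974, a description over arrays that form 2 separate groups. In both probe sets wild-type replicate 1, the array with the highest background gauge, was the lowest of the wild-type values.

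**Figure D1:**
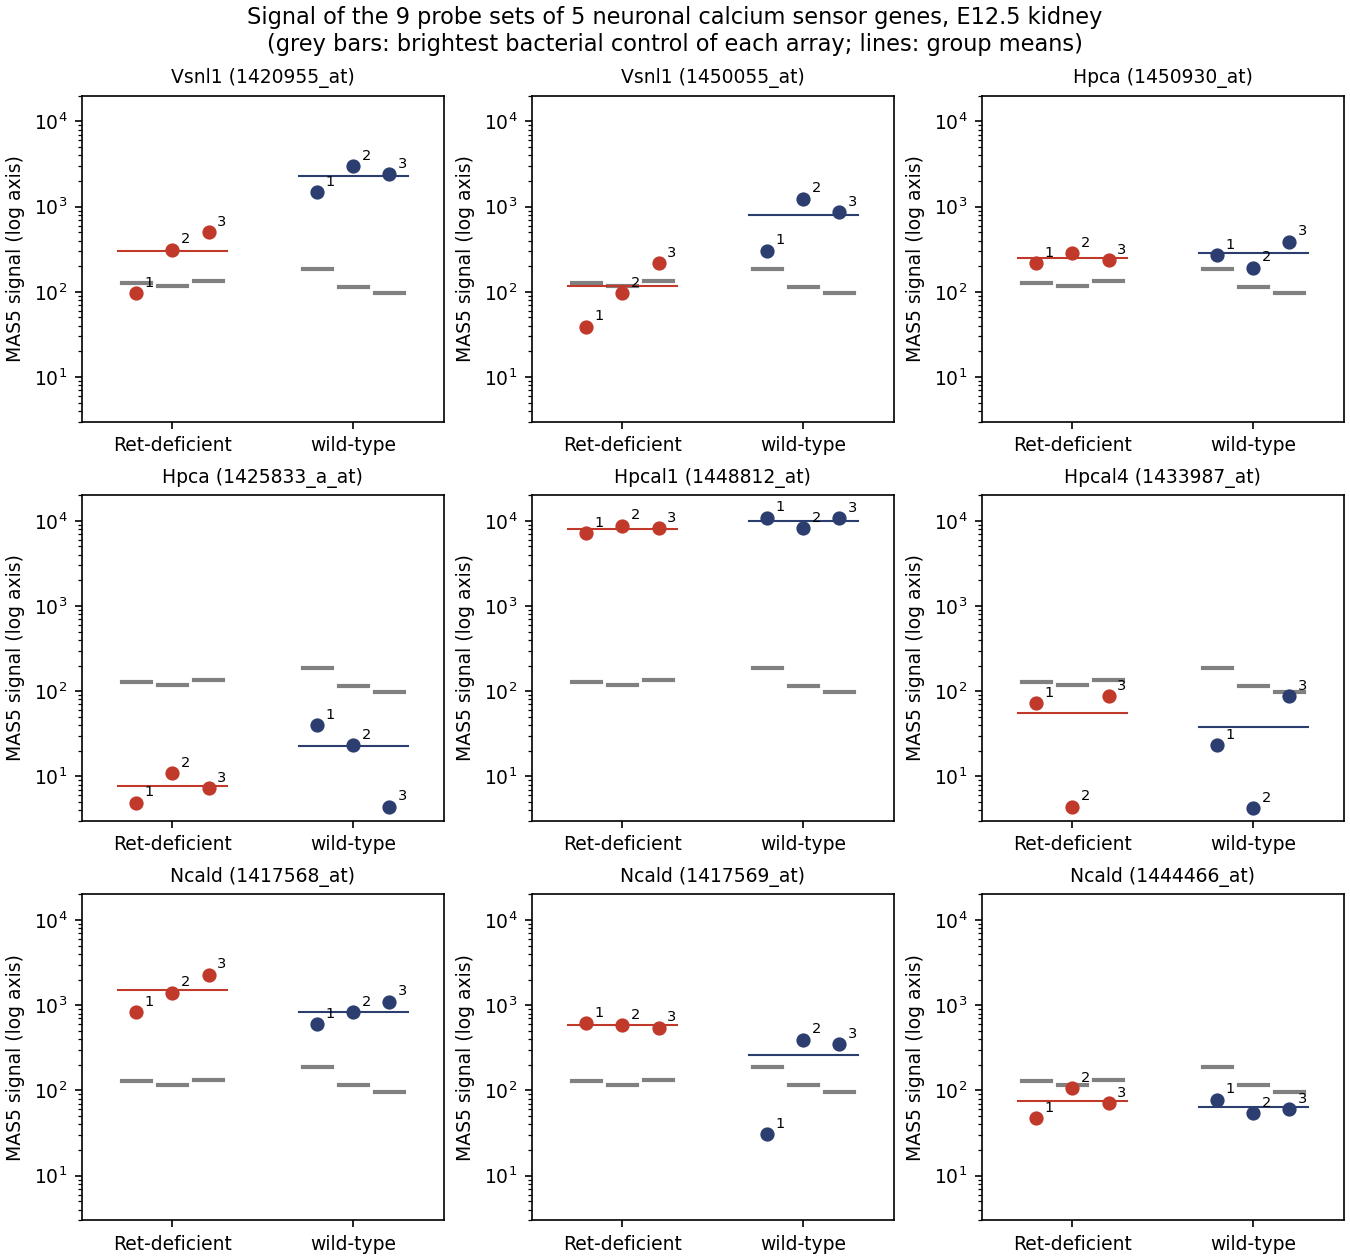
MAS5 signal (log axis) of the 9 probe sets in 3 Ret-deficient (red, left) and 3 wild-type (blue, right) samples, with the replicate number beside each point, the group mean as a line and the brightest bacterial control of each array as a grey bar. Both Vsnl1 probe sets are lower in the Ret-deficient samples with no overlap. Hpcal1 lies between 7134 and 10882 in all samples, and Hpcal4, 1 probe set of Hpca and 1 of Ncald stay at or below the grey bars.

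Over the 11581 genes with a tested probe set, Vsnl1 had the fifth most negative difference. The genes below it were Ret (-5.43, SE 0.53), the epithelial splicing factor gene Esrp1 (-3.30, SE 1.52), Mal2 (-3.15, SE 1.63) and the transcription factor gene Lhx1 (-3.13, SE 1.5). The standard error of Vsnl1 was 0.57. Its rank and standard error are a description, since they use the values for which Vsnl1 was chosen. Ret itself read 93.3, 479.8 and 334.1 in Ret-deficient and 13315, 11042 and 10193 in wild-type replicates 1, 2 and 3.

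The Ret-deficient samples differed in their signal of ureteric epithelium genes. Replicate 1 was the lowest of the 3 for both the epithelial median and Vsnl1, while replicates 2 and 3 stood in opposite order. A list of 30 epithelial genes, of which 21 were tested, had a median of -2.82 in Ret-deficient replicate 1, -0.38 in replicate 2 and -0.71 in replicate 3, measured against the wild-type mean. On the wild-type arrays this median lay between -0.17 and 0.10. On the same scale Vsnl1 was -4.30, -2.74 and -2.09 in Ret-deficient replicates 1, 2 and 3, against -0.56, 0.44 and 0.13 in wild-type replicates 1, 2 and 3. In Ret-deficient replicates 2 and 3, 0 of the 21 epithelial genes lay further below their wild-type mean than Vsnl1 did, and among all tested genes Vsnl1 had rank 5 from the lowest in replicate 2 and rank 32 in replicate 3. In Ret-deficient replicate 1, 6 of the 21 epithelial genes lay further below their wild-type mean than Vsnl1, which had rank 23. There Vsnl1 and 7 of the 21 epithelial genes were not above the background gauge, so this rank and the value of -4.30 are not exact. The ranks use the values for which Vsnl1 was chosen and are a description. The part of the epithelial signal in the values of Vsnl1 was not tested.

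The change of Vsnl1 from its wild-type mean was also set against the mean change of the 21 epithelial genes on the same array. This difference of changes was -1.03, -2.36 and -1.36 in Ret-deficient replicates 1, 2 and 3, against -0.49, 0.38 and 0.11 in wild-type replicates 1, 2 and 3. The groups did not overlap, and the difference of their means was -1.58. The value of Ret-deficient replicate 1 rests in part on signals at background, and with all values raised to the gauge the difference of the means was -1.56. Leaving out 1 array in turn gave -1.86 (Ret-deficient replicate 1) to -1.20 (Ret-deficient replicate 2). This is a description, since it uses the values for which Vsnl1 was chosen.

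**Figure D2:**
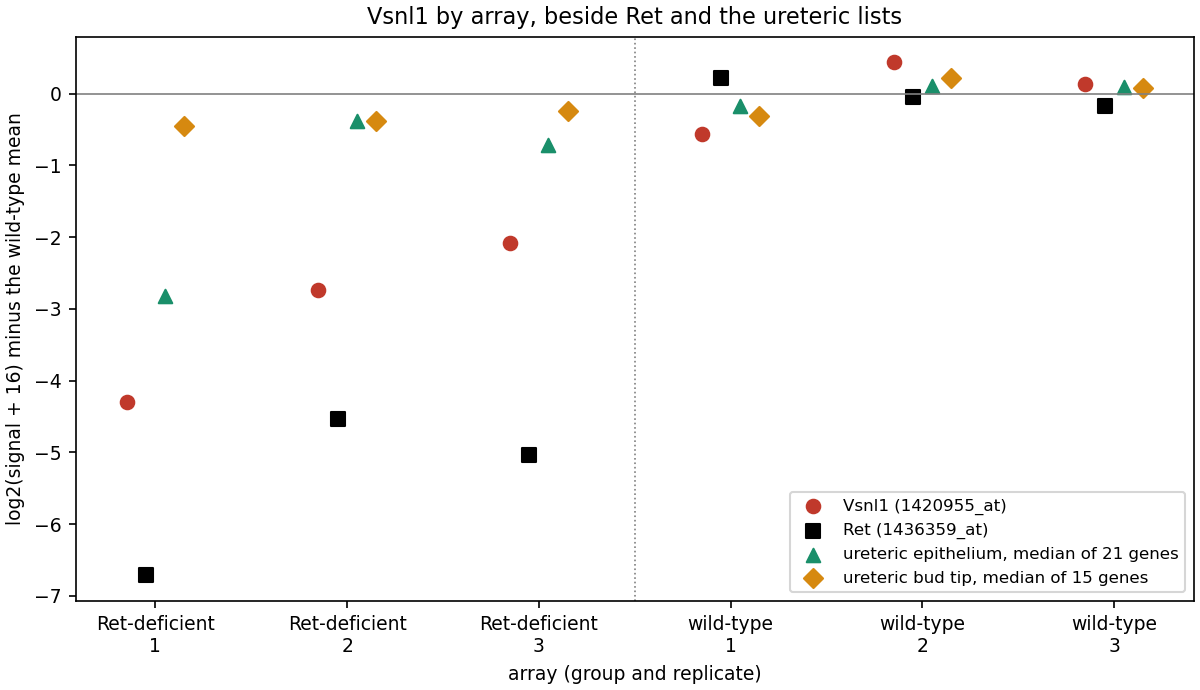
Log2(signal + 16) minus the wild-type mean on each of the 6 arrays, Ret-deficient on the left, for Vsnl1, Ret and the medians of the ureteric epithelium list (21 tested genes) and the ureteric bud tip list (15 tested genes, Ret among them). In Ret-deficient replicate 2 the epithelial median is -0.38 while Vsnl1 is at -2.74. Of the plotted series only Ret lies below Vsnl1 on the Ret-deficient arrays.

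Of the 21 tested epithelial genes 20 had a negative difference and 1 a positive one, with a median of -1.15, against -0.01 over all tested probe sets. None passed the limma test. The brightest members were Calb1, Gata2 and Krt18. Calb1, which encodes the EF-hand protein calbindin, read 128.1, 13353 and 20482 in Ret-deficient and 21363, 29916 and 28457 in wild-type replicates 1, 2 and 3. Its signal in Ret-deficient replicate 1 did not exceed the background gauge of 128.2. The transcription factor gene Gata2 was the member with the positive difference (0.26, SE 0.21), and Krt18, a keratin of simple epithelia, had -1.0 (SE 0.61). With Ret-deficient replicate 1 left out, this epithelial median was -0.61, and the difference of Vsnl1 was -2.41. With Ret-deficient replicate 2 left out, the median was -1.80 and the difference of Vsnl1 was -3.19.

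The ureteric bud tip list, which holds Ret, had differences of both signs and of varied size at its other genes. The median of its 15 tested members was -0.36, 11 of them negative and 4 positive, and none passed the test. In Ret-deficient replicates 2 and 3, 0 of the 14 members other than Ret lay further below their wild-type mean than Vsnl1. Beside Ret, Tmem59l and Myb were lower without overlap, as were 5.54% of all tested probe sets. Both are named after their values were seen. Tmem59l read 20.0, 407.2 and 207.8 in Ret-deficient and 449.2, 839.7 and 844.2 in wild-type replicates 1, 2 and 3. Its difference was -2.22 (SE 0.86), with Ret-deficient replicate 1 below background, and that of Myb was -0.52 (SE 0.17). The brightest were Mycn, a growth-promoting transcription factor gene (0.07, SE 0.32), Dusp6, a feedback phosphatase of ERK signalling (-0.03, SE 0.21), and Sox9 (0.42, SE 0.21). The ETS factor genes Etv4 and Etv5, chosen after their values were seen, had -0.54 (SE 0.24) and -0.29 (SE 0.31), and both overlapped between the groups. Wnt11 (0.98, SE 0.74), Cxcr4 (-0.97, SE 0.43) and Sox8 (-0.96, SE 0.61), also named after their values were seen, overlapped too. Wnt11 read 80.7 in wild-type replicate 1, which was not above background, so its difference is approximate. The median of the tip list ranged from -0.52 (wild-type replicate 1 left out) to -0.21 (Ret-deficient replicate 1 left out).

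Hpcal1, which encodes a hippocalcin-like protein also named VILIP3, was above background on all arrays. It read 7134, 8775 and 8144 in Ret-deficient replicates 1, 2 and 3, against 10882, 8199 and 10756 in wild-type replicates 1, 2 and 3. The groups overlapped through wild-type replicate 2. The log2 difference was -0.30 (SE 0.19), and the limma test over all probe sets was not passed (adjusted p = 0.937). With 1 array left out in turn the difference stayed between -0.44 and -0.22.

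Ncald, which encodes neurocalcin delta, read higher in Ret-deficient kidneys on average, and did not pass the limma test. Its brighter probe set read 836.4, 1405 and 2287 in Ret-deficient replicates 1, 2 and 3, against 596.2, 822.5 and 1106 in wild-type replicates 1, 2 and 3. These ranges overlapped, since Ret-deficient replicate 1 lay below wild-type replicate 3. The difference was 0.76 (SE 0.40, limma adjusted p = 0.937). Leaving out Ret-deficient replicate 3 gave 0.40, and leaving out replicate 1 of that group gave 1.12.

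A second Ncald probe set, annotated to the same sequence record, read 611.4, 581.8 and 545.7 in Ret-deficient replicates 1, 2 and 3, against 30.7, 395.1 and 352.0 in wild-type replicates 1, 2 and 3. Here the groups did not overlap, as at 5.17% of the tested probe sets in this direction. The difference was 1.63 (SE 0.80, limma adjusted p = 0.932). It rested largely on wild-type replicate 1, whose value of 30.7 lay far below that array's background gauge of 186.9. Without this array the difference was 0.61 (SE 0.16), and with all values raised to the gauge it was 0.93 (SE 0.28). The third probe set, was annotated to another sequence record and was not above background on any array, with 46.9 to 106.4 in Ret-deficient and 54.2 to 78.2 in wild-type kidneys. Between the first and the second probe set the order of the Ret-deficient samples was reversed.

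Hpca, which encodes hippocalcin, a sensor abundant in hippocampal neurons, was dim. Its brighter probe set read 216.7, 287.4 and 237.2 in Ret-deficient replicates 1, 2 and 3, against 271.9, 192.3 and 387.6 in wild-type replicates 1, 2 and 3. All 6 values were above the gauge of their array, and the wild-type range enclosed the Ret-deficient one (difference -0.15, SE 0.31). The other Hpca probe set read 4.9 to 10.8 in Ret-deficient and 4.4 to 40.3 in wild-type kidneys, below the gauge on every array. Hpcal4, a close relative of Hpcal1, was not above background on any array either, with 71.8, 4.4 and 87.9 in Ret-deficient and 23.1, 4.2 and 87.4 in wild-type replicates 1, 2 and 3. No fold is given for these.

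**Figure D3:**
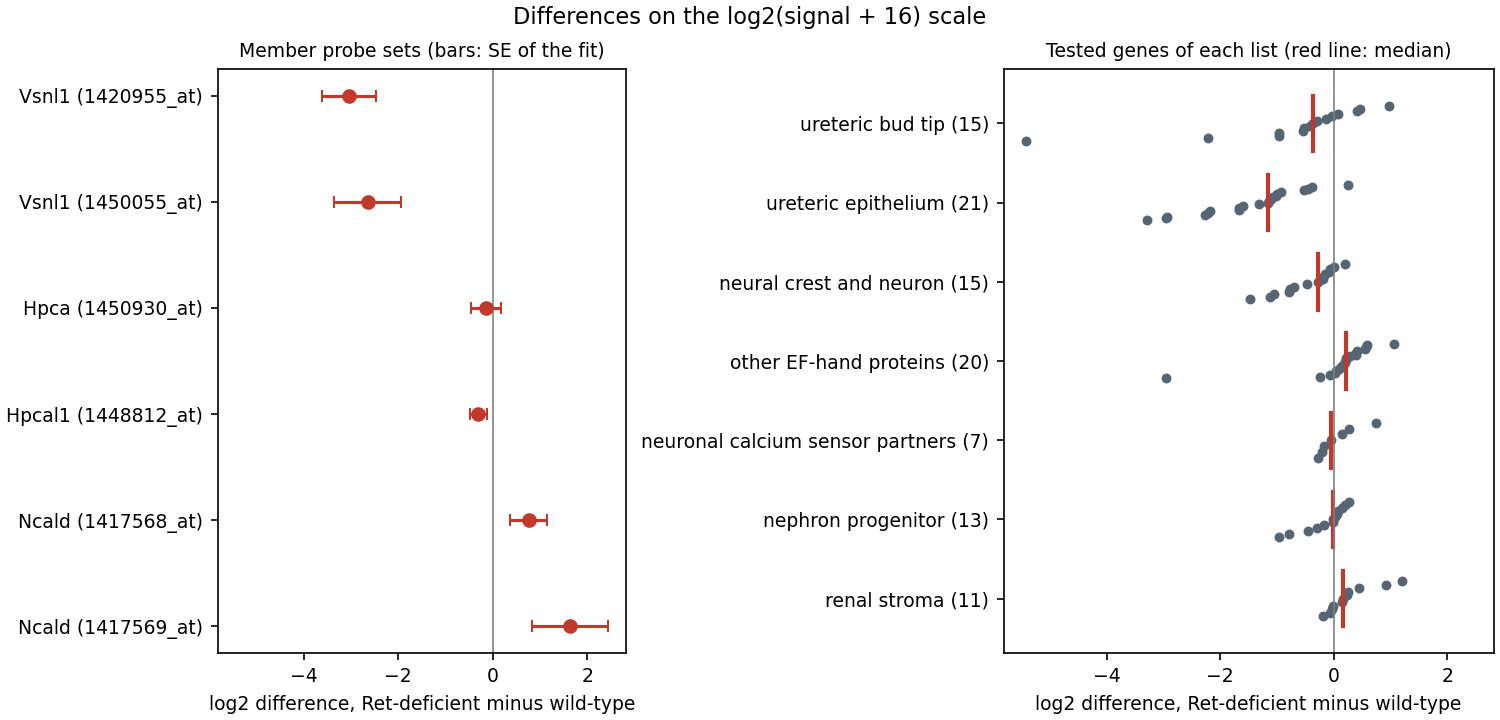
Log2 difference, Ret-deficient minus wild-type, for the 6 member probe sets that were above background on at least 1 array (left, bars give the SE of the fit) and for the tested genes of 7 lists (right, 1 point per gene, red line at the median, number of genes in parentheses). The Vsnl1 probe sets lie at -3.04 and -2.64, those of Hpca and Hpcal1 near 0, and those of Ncald above 0. The single low point among the other EF-hand proteins is Calb1.

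The remaining family members gave little signal. Of 8 other neuronal calcium sensor genes 1 was tested, Ncs1, the most widely expressed member of the family. It read 2905, 2813 and 2774 in Ret-deficient replicates 1, 2 and 3, against 1815, 3125 and 2766 in wild-type replicates 1, 2 and 3, and wild-type replicate 1 stood below the other 5 (difference 0.18, SE 0.23, limma adjusted p = 0.97). The photoreceptor gene Rcvrn, which encodes recoverin, read 4.6 to 14.6 in Ret-deficient and 2.8 to 18.5 in wild-type kidneys, below the gauge throughout. The guanylate cyclase activator genes Guca1a and Guca1b and the potassium channel-interacting protein genes Kcnip1, Kcnip2, Kcnip3 and Kcnip4 all lay under the brightness limit. The groups did not overlap at 1 probe set each of Kcnip2 and Kcnip4 with signals above background, in opposite directions, and these are named after their values were seen. Kcnip2 was higher at its brightest probe set, which read 304.2, 325.4 and 357.5 in Ret-deficient and 188.7, 242.2 and 182.6 in wild-type replicates 1, 2 and 3. All 6 values were above the gauge of their array, that of wild-type replicate 1 by little (gauge 186.9). Its difference, in the fit without the brightness limit, was 0.65 (SE 0.22). Another Kcnip2 probe set overlapped between the groups with a negative difference (-1.35, SE 0.92) and was not above background in any Ret-deficient sample. Kcnip4 was lower at a probe set that read 152.7, 104.1 and 126.4 in Ret-deficient and 270.4, 226.8 and 289.6 in wild-type replicates 1, 2 and 3. All wild-type values were above the gauge and only 1 of the 3 Ret-deficient values was, so the difference of -0.96 (SE 0.24) is approximate. The brightest Kcnip4 probe set overlapped between the groups (0.07, SE 0.37).

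Genes for proteins that handle or bind neuronal calcium sensors had no common direction. Of 13 listed, 7 were tested (median -0.04, 4 negative, 3 positive), and none passed. The brightest were Cltc, the clathrin heavy chain (-0.04, SE 0.22), and the N-myristoyltransferase genes Nmt1 (-0.17, SE 0.15) and Nmt2 (-0.28, SE 0.19), whose enzymes attach myristate. The median of this list was 0.069 with each array centred on its own median. Pi4kb, a phosphatidylinositol 4-kinase regulated by the product of Ncs1, was chosen after its values were seen. It read 1342, 1393 and 1205 in Ret-deficient and 530.7, 949.5 and 929.9 in wild-type replicates 1, 2 and 3, without overlap (difference 0.74, SE 0.25, limma adjusted p = 0.88).

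Other EF-hand genes were mostly slightly positive. Of 42 listed, 20 were tested (median 0.21, 17 positive, 3 negative), and none passed the limma test. Over all tested probe sets 48.3% were positive. With each array centred on its own median this share was 65.6%, and the median of the list was 0.32. Without overlap, 5 of the 20 were higher and 1, Calb1, was lower, against 5.17% and 5.54% of all tested probe sets. Rcn1, a calcium-binding protein of the endoplasmic reticulum, had 0.18 (SE 0.17), S100a10, a partner of annexin A2, had 0.59 (SE 0.18), and Pdcd6 had 0.04 (SE 0.19). The median of the list ranged from 0.15 to 0.23 with 1 array left out in turn. Calb1, the tested member with the large negative difference, is also in the epithelial list. Among the members under the brightness limit, Tesc and Cabp1, named after their values were seen, were lower without overlap. The brighter Tesc probe set read 106.1, 6.9 and 75.5 in Ret-deficient and 207.0, 303.4 and 266.7 in wild-type replicates 1, 2 and 3. A Cabp1 probe set read 118.6, 33.0 and 68.3 in Ret-deficient replicates, against 367.9, 169.0 and 125.9 in wild-type replicates. Neither was above background in any Ret-deficient sample.

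Neurons and other neighbours were checked by their markers because the family is neuronal. Of 20 neural crest and neuron genes 15 were tested, and their median was -0.28 (13 negative, 2 positive, none past the test). Their summed signal, most of it from Ncam1 and Isl1, was 48194 to 71668 in Ret-deficient and 65744 to 75202 in wild-type kidneys. Against the wild-type mean the median of the list by array was 0.13, -0.04 and -1.31 for Ret-deficient replicates 1, 2 and 3, and -0.53, -0.08 and 0.49 for wild-type replicates 1, 2 and 3. It was lowest in Ret-deficient replicate 3, and leaving that sample out gave a median difference of 0.093. Ncam1, an adhesion molecule of neurons and nephron progenitors, had 0.20 (SE 0.16), and Isl1 had -0.77 (SE 0.60). The glial factor gene Sox10 read 2269, 1100 and 1644 in Ret-deficient and 6971, 3770 and 3362 in wild-type replicates 1, 2 and 3 (-1.47, SE 0.37, limma adjusted p = 0.87).

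Of 8 adrenal cortex genes 3 were tested, Fdx1 (0.25, SE 0.31), Mc2r (-0.58, SE 0.35) and Star (-0.38, SE 0.36). Their summed signal was 7783 to 10577 in Ret-deficient and 6193 to 12104 in wild-type kidneys. The other 5 lay under the brightness limit, and 2 of their defining steroid enzyme genes are named after their values were seen. Cyp11b1, the steroid 11-beta-hydroxylase gene, was not above background on any array. The brightest Cyp11a1 probe set was above background on all arrays, with 147.7, 149.1 and 190.4 in Ret-deficient and 287.3, 297.6 and 234.7 in wild-type replicates 1, 2 and 3, without overlap (-0.70, SE 0.23). Its other probe sets, mostly not above background, overlapped between the groups (-0.11, SE 0.94, and 0.15, SE 0.44). Of 9 gonad genes 2 were tested, Sox9 and Inha (-0.02, SE 0.24), and Amh, also named after its values were seen, was at background throughout. Nephron progenitor genes had a median of -0.01 over 13 tested genes and renal stroma genes one of 0.17 over 11. Among the progenitor genes, Wt1 had -0.02 (SE 0.19), Sall1 -0.18 (SE 0.28) and Eya1 0.06 (SE 0.18), and among the stromal genes Col3a1 had 0.44 (SE 0.21), Aldh1a2 -0.07 (SE 0.14) and Col1a1 0.17 (SE 0.18). Without overlap, 5.54% of all tested probe sets were lower and 5.17% higher. Of the 13 tested progenitor genes 2 were lower in this way, Gdnf (-0.97, SE 0.21), which encodes the ligand of Ret, and Tmem100 (-0.78, SE 0.24). Of the 11 tested stromal genes 3 were higher in this way, Dcn (1.2, SE 0.28), Foxd1 (0.93, SE 0.35) and Meis2 (0.14, SE 0.15), and Aldh1a2 was lower. All of these but Aldh1a2 were named after their values were seen, and none passed the limma test. The part of these cell types in the values of Vsnl1 was not tested.

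The genes whose signal most resembled that of Vsnl1 were found by Pearson correlation of log2(signal + 16) over the 6 arrays, among 11147 genes without clone names. The 10 with the highest r were Hoxb6, Nemp1, Lratd2, Klhl29, Kbtbd8, Mettl4, Aldh1a3, Abcc4, Lactb2 and Rfwd3, with r of 0.976 to 0.992. In all 10 the Ret-deficient values lay below the wild-type values without overlap, against 5.54% of all tested probe sets. The choice by r with Vsnl1 favours this, so nothing is read from it. Vsnl1 has the same gap between the groups, so the 6 points form 2 clusters. Hoxb6, a homeobox gene, read 1859, 2475 and 2979 in Ret-deficient and 3746, 4362 and 3902 in wild-type replicates 1, 2 and 3 (difference -0.74, SE 0.21). Aldh1a3, which makes retinoic acid and is expressed in the ureteric bud, read 346.2, 1554 and 1653 in Ret-deficient and 3973, 5722 and 4773 in wild-type replicates 1, 2 and 3. Its difference was -2.28 (SE 0.58), while those of the other 9 lay between -1.37 and -0.28.

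The order of the 6 arrays was the same as for Vsnl1 in 27 genes, 5 of the 10 among them. Without Ret-deficient replicate 1 the r of the 10 was 0.948 to 0.991 and they ranked 12 to 83, behind Sim1, Bend3 and Entpd6 in the first places. For Ret, r with Vsnl1 was 0.952. For Hpcal1 it was 0.665 and for the brighter Ncald probe set -0.25, so neither relative shared the pattern of Vsnl1 closely.

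**Figure D4:**
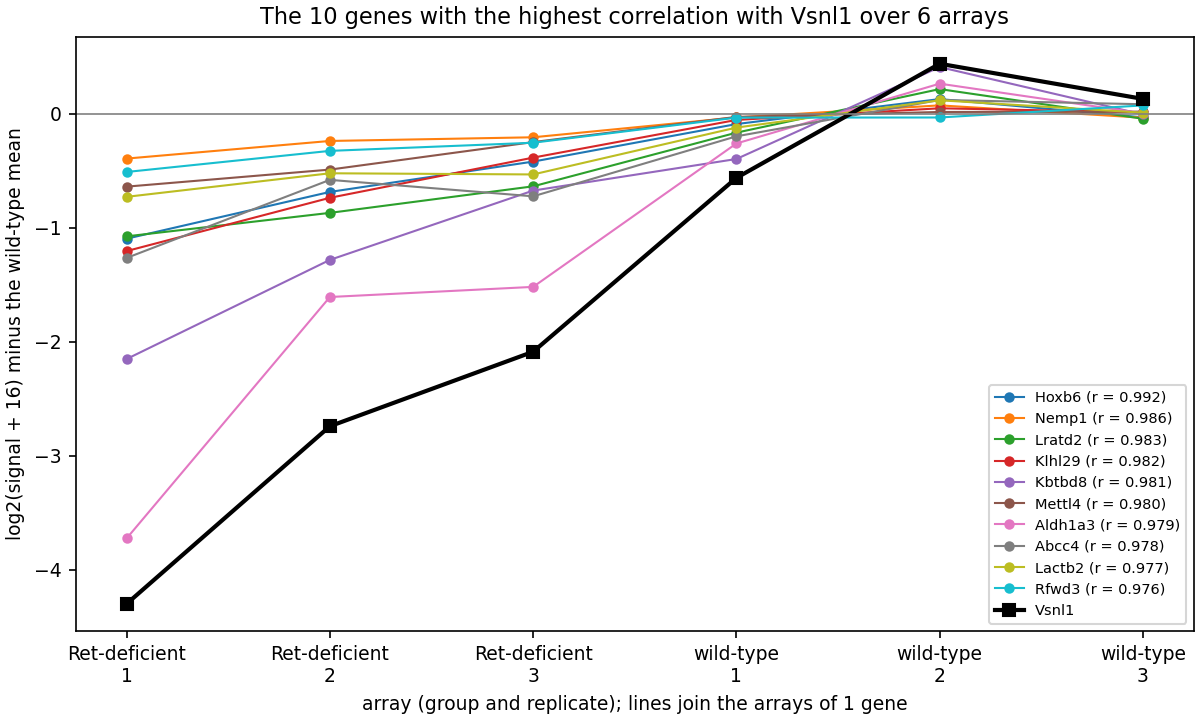
Log2(signal + 16) minus the wild-type mean on each array, Ret-deficient on the left, for Vsnl1 (black squares) and the 10 genes with the highest Pearson correlation with it over the 6 arrays. Lines join the arrays of a gene. All lie below 0 on the Ret-deficient arrays, and Vsnl1 has the widest range, with Aldh1a3 next to it.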

How the data were processed

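The deposited values are MAS5 signal intensities, scaled by the authors, per the submitters' processing notes and the equal trimmed means of the table. No MAS5 version or present and absent calls were used. Per the labels' protocols RNA was extracted from whole kidneys, and the design text adds an amplification step. Values were used as log2(signal + 16) without further normalization, because array medians differed by 0.42, under the limit of 0.5. After removal of 64 control probe sets, those at or above the median of the mean log2 values were tested. Symbols came from the platform annotation, updated by gene ID with RefSeq names: 34958 probe sets had 1 symbol, 932 several and 9211 none. A gene was represented by its brightest tested probe set. Groups were compared with limma 3.58.1 in R 4.3.3, lmFit and eBayes without covariates, and p values were adjusted by Benjamini-Hochberg over all 22519 tested probe sets. In simulated data of that size limma called 10 of 67 probe sets with a true log2 change of 1, 39 of 67 with one of 2 and 61 of 66 with one of 4, plus 4 unchanged ones. These counts hold for the simulated data only and do not give the power on the real arrays. There Ret, with a difference of -5.43, had a limma adjusted p of 0.51. Promoters and figures used Python 3.11.15, pandas 2.3.3 and matplotlib 3.10.9.

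The members and lists were chosen with earlier results of these data known. The planned brightness limit did not say whether the mean is taken over signals or log2 values. The mean signal was used first, and after its results were seen the mean log2 value was taken instead, since it gave the counts of earlier work on these data. Named genes were all member probe sets, Ret, the other neuronal calcium sensors, the 10 genes most like Vsnl1 and the 3 brightest members of each other list; others are marked where named. Precision is limited by the number of arrays: an exact permutation test of 3 against 3 cannot give a p below 0.1. Alternatives were other pseudocounts, brightness limits, normalizations and variance models, array weights, the replicate number as a block, background floors and each array left out. No pairing of the samples by replicate number was seen, which does not exclude it.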

Additional observations from a re-analysis of the deposited data

How the results depend on the processing

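The log2 difference of Vsnl1 lay between -3.52 and -2.41 over 17 alternatives and moved by less than the spread between replicates in each. The value of -2.41 was that without Ret-deficient replicate 1. Some alternatives could not change it: other brightness limits, the variance trend, the replicate block and, with 1 tested probe set, averaging per gene. Their value of -3.04 is therefore no check. With the 30 percent brightest probe sets Vsnl1 was not tested. Hpcal1 lay between -0.44 and -0.15 and the brighter Ncald probe set between 0.40 and 1.12 (1.2 with probe sets averaged per gene), always on the same side of 0 and of the threshold, with limma adjusted p of 0.693 to 0.9996 and 0.523 to 0.9996. Hpca, -0.38 to 0.095, and Hpcal4, at background, changed sign. The count at an adjusted p of 0.05 was 1 in place of 0 with median centring, with an intensity trend in the variance and without Ret-deficient replicate 1, and that probe set was Ret's. Leaving out 1 array gave 0 to 1. The count at an unadjusted p under 0.05, 1209, was 2265 without a brightness limit, 723 with the 30 percent brightest, 2533 with array quality weights and 838 to 2140 with 1 array left out, the highest without Ret-deficient replicate 3. Median centring moved the median of all tested probe sets by 0.11.

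The median of the gonad list (0.20) was 0.42 with the 30 percent brightest, 0.31 with median centring and 0.35 with probe sets averaged per gene. That of nephron progenitors (-0.01) was -0.28 with array quality weights, that of other EF-hand proteins (0.21) was 0.32 with median centring, and that of stroma (0.17) was 0.35 with probe sets averaged per gene. That of the sensor partners (-0.04) was -0.17 with the 30 percent brightest, 0.069 with median centring, 0.091 with array quality weights and -0.18 to 0.036 with 1 array left out. The cause was not tested. Of the 10 genes most like Vsnl1, 5 ranked first by Spearman correlation and 0 were among the first 10 without Ret-deficient replicate 1, where they ranked 12 to 83. The median of the epithelium list (-1.15) was -1.80 to -0.61 with 1 array left out, the ends without Ret-deficient replicates 2 and 1. With brightness measured by the mean signal, the reading used first and replaced after its results were seen, 1208 probe sets in place of 1209 had an unadjusted p under 0.05 and 0 passed. The limma adjusted p of Ret was 0.299 in place of 0.51, 5 in place of 4 member probe sets were tested, and 9 of the 10 genes most like Vsnl1 were shared, with Krt23 (r = 0.992) in first place.

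Same-numbered arrays had correlations of their deviations of 0.03, -0.04 and -0.12, so no pairing by number was seen. With 3 arrays per group these values cannot exclude it, and pairing by litter was not tested. With the replicate number as a block 0 probe sets passed and 1141 had an unadjusted p under 0.05. In a design of 3 against 3 this block cannot change a difference, so that of Vsnl1 was again -3.04. The SE did change, to 0.33 from 0.57 for Vsnl1 and to 0.21 from 0.40 for the brighter Ncald probe set. For Hpcal1 it rose to 0.23 from 0.19.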
